A study of Sus scrofa with 8 samples.

Results

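The genes described here carry glucose from uptake to lactate and glycogen. They comprise 35 genes for glucose transporters, hexokinases, the enzymes of glycolysis, lactate and pyruvate handling, and glycogen synthesis and breakdown. They were chosen by gene symbol and not by measured values, though with earlier results of these data known, from a table of 30550 genes. All 35 symbols were found, in 36 rows, because LDHB stands in 2 rows. Its gene on chromosome 5 carried the signal and is used here, and the row on chromosome 2 was listed at 0 in all 8 libraries. Tissue of the right ventricle of pigs (Sus scrofa) was profiled by RNA sequencing in 4 libraries of a heterozygous PKP2 knockout (PKP2_het, written PKP+/- in the protocol) and 4 wild-type libraries (WT). The PKP2 product, plakophilin 2, belongs to the desmosomes, the junctions between heart muscle cells, and the pigs are described as modelling arrhythmogenic cardiomyopathy. Although the labels give cardiomyocytes as cell type, RNA was taken from tissue according to the protocol. Age, sex, breed and treatment are not analysed here. Whether the libraries of a group stem from different pigs is not labelled, and p-values therefore reflect only library-to-library spread, which may be technical.

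The adult heart draws most of its ATP from fatty acids and takes glucose as a second fuel. Glucose enters through transporters of the SLC2A family, is phosphorylated by hexokinases, and is then either split to pyruvate by glycolysis or stored as glycogen. Pyruvate is exchanged with lactate by lactate dehydrogenase or burnt in mitochondria after the pyruvate dehydrogenase step, which the PDK kinases switch off. Many steps have a muscle isozyme and an isozyme found more widely, so the balance between paired genes is part of what a tissue expresses.

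Levels are given in FPKM, fragment numbers corrected for the length of a gene and scaled between libraries to the median gene. They depend on the annotated length of each gene. The libraries held 23637697 to 31313628 gene-assigned fragments each. PKP2 itself was at 45.4, 40.7, 24.6 and 45.9 FPKM in PKP2_het replicates 1 to 4. It was at 52.9, 62.2, 61.1 and 72.8 FPKM in WT replicates 1 to 4, so the groups did not overlap. PKP2 did not pass the limma threshold, with a log2 fold change of -0.69, an unadjusted limma p of 0.0072 and an adjusted p of 0.164. Without PKP2_het replicate 3 its limma adjusted p was 0.0732, and it was called in 1 of 17 alternative fits. All 9 ventricular cardiomyocyte markers were above 1 FPKM on average, and their summed level ran from 23864 to 33715 FPKM in PKP2_het and from 25163 to 28197 FPKM in WT. All 8 fast skeletal muscle markers averaged under 1 FPKM, with sums of 0.346 to 0.785 FPKM in PKP2_het and 0.298 to 0.712 FPKM in WT. Atrial markers summed to between 8.93 and 652 FPKM in PKP2_het and between 6.42 and 1165 FPKM in WT. Erythroid markers summed to between 92.4 and 436 FPKM in PKP2_het and between 52.4 and 515 FPKM in WT. Lymphocyte markers, of which 4 of 5 averaged under 1 FPKM, had sums that did not overlap, at 0.985 to 3.26 FPKM in PKP2_het and 3.77 to 4.97 FPKM in WT, and their part in the results was not tested. Markers were tested where they reached 1 FPKM in at least 4 libraries, and none of those tested passed the limma threshold. That left 0 of 8 fast skeletal muscle, 2 of 4 atrial, 2 of 5 lymphocyte and 2 of 5 erythroid markers tested. Of adipocyte markers 3 of 5 were tested, and of macrophage markers 5 of 6. PKP2_het replicate 3 stood apart from the other libraries: it had 52.1% of its fragments from the mitochondrial genome. The share was 37.6% in WT replicate 1, 33.4% in PKP2_het replicate 4 and 21.1% to 25.7% elsewhere. For part of the genes, results are therefore also given without PKP2_het replicate 3. In bulk tissue, fewer cells of a type and less RNA per cell cannot be told apart.

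None of the 31 tested glucose and glycogen genes passed the genome-wide threshold (limma, Benjamini-Hochberg adjusted p threshold 0.05), against 1.86% of the 10757 genes tested, 1.15% higher and 0.707% lower in PKP2_het. The other 4 members, HK2, PFKFB1, PFKFB3 and SLC16A3, lay under the filter of 1 FPKM in at least 4 libraries. The smallest adjusted p among the members was 0.09998, for PFKL. PKP2, which is not a member, did not pass either, at a limma adjusted p of 0.164. An unadjusted limma p under 0.05 was found for 5 of 31 members, all lower in PKP2_het: PFKL, PGM1, PDK1, PYGM and SLC16A1. On Sscrofa11.1, PFKL lies on chromosome 13 from 207167287 to 207191688, PGM1 on chromosome 6 from 148851183 to 148918891, and PDK1 on chromosome 15 from 78608394 to 78650958. PYGM lies on chromosome 2 from 7409330 to 7421256 and SLC16A1 on chromosome 4 from 107510920 to 107547609. Of all genes tested, 5.96% were lower at that level and 6.88% higher. The groups did not overlap for 3 members, PFKL, PGM1 and SLC16A1, each lower in PKP2_het, against 4.33% of all genes lower without overlap, 4.86% higher and 9.19% in either direction. No member had a log2 fold change of 1 or more in size, and the standard errors ran from 0.12 to 0.28.

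The members' values in PKP2_het depended on 1 library. With all libraries, the log2 fold change was negative for 22 of 31 members and its median was -0.16, whereas 54.3% of all genes were negative and their median was -0.022. Without PKP2_het replicate 3, 16 of 31 were negative and the median was -0.0035. That library was the lowest of its group for 22 of 31 members, against 44.6% of all genes, and the lowest of all 8 libraries for 19, against 36.3% of all genes. It was the highest of its group for 2 members, PGAM2 and ENO1, against 32.7% of all genes. On the log2(FPKM + 1) scale its median distance from the mean of the other 3 PKP2_het libraries was -0.46 over the members and -0.069 over all genes. The distance was -0.24 for the 8 members with gene lengths under 2000 bases, -0.49 for the 15 of at least 2000 but under 4000 bases and -0.56 for the 8 of 4000 bases or more. Across the 31 members its correlation with log2 length was -0.22, and across all tested genes -0.28, as a description of 1 library in which genes are not independent. The part of length and of the mitochondrial share in the members' values was not tested.

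**Figure D1:**
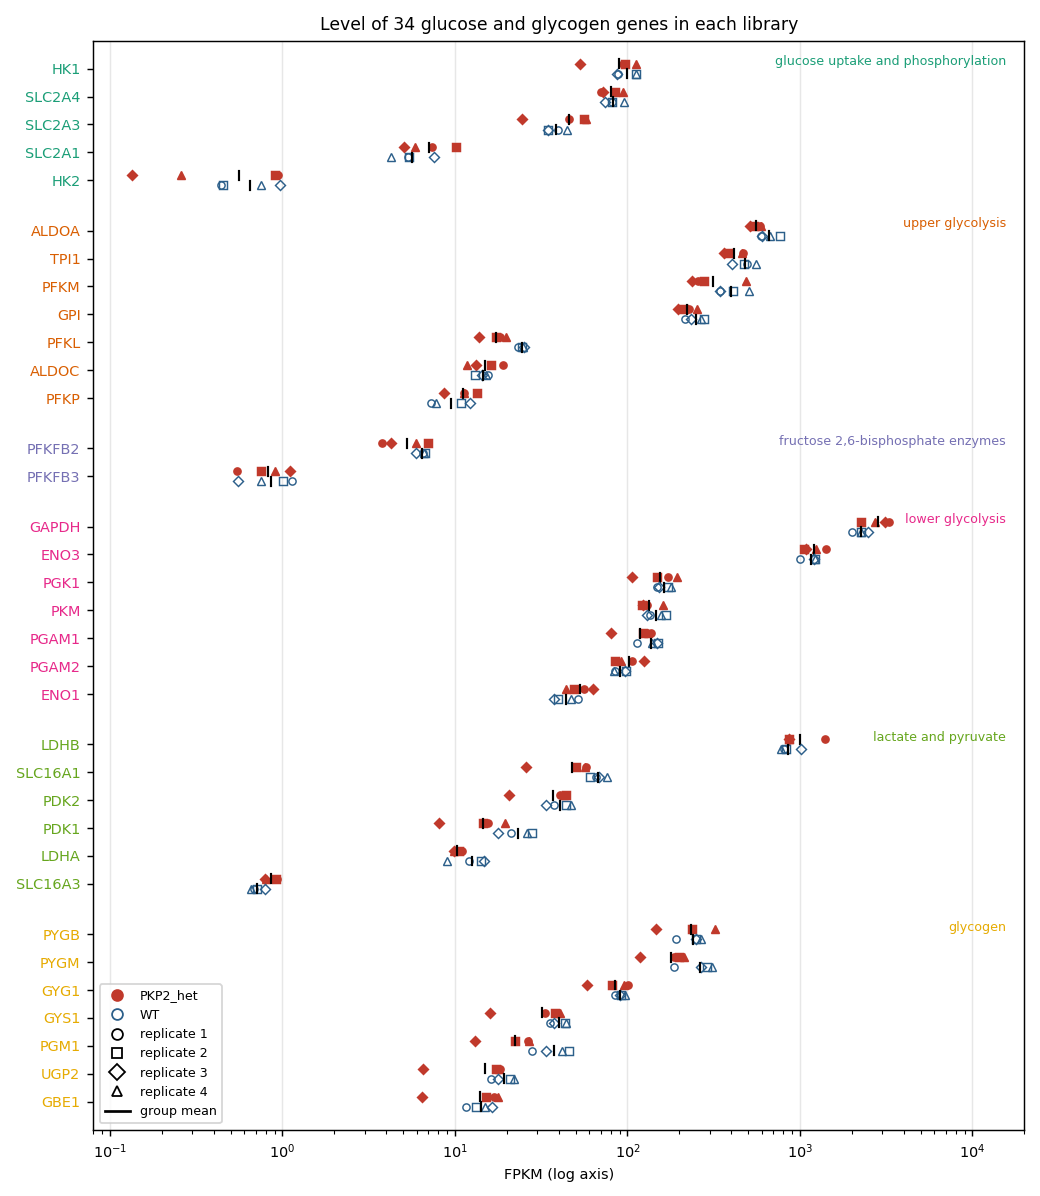
FPKM on a log axis for the members, grouped by role, with PKP2_het libraries as filled red symbols above WT libraries as open blue symbols, symbol shape giving the replicate number and black bars the group mean. PFKFB1, at 0 in most libraries, is left out. GAPDH, ENO3 and LDHB stand at the top of the range and PKP2_het replicate 3 (diamonds) is the lowest PKP2_het library for most genes.

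Of the 3 glucose transporters, SLC2A4 was the highest (GLUT4, the insulin-responsive transporter of muscle and fat). It was at 69.8, 84.8, 72.1 and 94.6 FPKM in PKP2_het replicates 1 to 4, against 81.8, 81.1, 74.0 and 95.01 FPKM in WT replicates 1 to 4. The groups covered nearly the same range, and the log2 fold change was -0.05 with a 95% interval from -0.36 to 0.26. SLC2A3 (GLUT3, a high-affinity transporter best known from neurons) came next, at 45.8, 55.7, 24.4 and 57.9 FPKM in PKP2_het and 39.3, 34.8, 34.5 and 44.6 FPKM in WT. PKP2_het replicates 1, 2 and 4 lay above every WT library and replicate 3 below every one. Its log2 fold change was 0.19 with a limma adjusted p of 0.768. When PKP2_het replicate 3 was left out it was 0.46, with a limma adjusted p of 0.0986, and the adjusted p ran from 0.0588 to 0.937 over the 17 alternative fits. SLC2A1 (GLUT1, the basal transporter) was the lowest of the 3, at 7.09 ± 2.23 FPKM in PKP2_het, against 5.64 ± 1.41 FPKM in WT (SD, n = 4), with overlapping groups and a limma adjusted p of 0.633.

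HK1, the hexokinase found in most tissues, stood far above HK2. Its level was 93.7, 96.9, 53.1 and 112 FPKM in PKP2_het replicates 1 to 4, against 88.0, 112, 86.6 and 112 FPKM in WT. Apart from PKP2_het replicate 3 the groups spanned a like range, and the limma adjusted p was 0.736. The log2 fold change was -0.20 with all libraries and 0.03 without PKP2_het replicate 3. HK2, the insulin-regulated muscle hexokinase, was at or under 0.962 FPKM in every library, with 10 to 97 fragments, and was not tested.

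In upper glycolysis the muscle forms stood far above their counterparts. ALDOA, the muscle aldolase, had the highest level, at 590, 541, 513 and 594 FPKM in PKP2_het replicates 1 to 4, against 593, 768, 601 and 671 FPKM in WT. The highest PKP2_het library lay just above the lowest WT library, and the limma adjusted p was 0.547. PFKM, the muscle subunit of phosphofructokinase, the committed step of glycolysis, was at 257, 279, 237 and 485 FPKM in PKP2_het and 344, 406, 346 and 504 FPKM in WT. In PKP2_het, replicate 4 was close to the highest WT library and the other 3 were below all WT libraries; the log2 fold change was -0.39 with a limma adjusted p of 0.549. TPI1 (triosephosphate isomerase) averaged 417 ± 52.6 FPKM in PKP2_het, against 482 ± 62.8 FPKM in WT (SD, n = 4). GPI (glucose-phosphate isomerase) averaged 222 ± 23.9 FPKM in PKP2_het, against 249 ± 29.3 FPKM in WT. Both had overlapping groups and limma adjusted p-values of 0.618 and 0.670.

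PFKL, the liver-type subunit of phosphofructokinase, had the smallest p of the members. It was at 18.3, 17.4, 13.8 and 19.8 FPKM in PKP2_het replicates 1 to 4, against 23.2, 24.5, 25.03 and 24.95 FPKM in WT replicates 1 to 4. All PKP2_het libraries lay below all WT libraries, and the WT values lay close together. PFKL averaged 17.3 ± 2.59 FPKM in PKP2_het, against 24.4 ± 0.831 FPKM in WT (SD, n = 4), so that the PKP2_het mean came to 70.9% of WT. Its log2 fold change was -0.48 (standard error 0.12), the unadjusted limma p was 0.0031 and the adjusted p 0.09998. Without PKP2_het replicate 3 the log2 fold change was -0.38 with an adjusted p of 0.0469, the 1 member called in that fit, in which 2.92% of all genes were called and 1.11% were called lower. Over all 17 alternative fits the adjusted p ran from 0.0138 to 0.710. PFKP, the platelet-type subunit, was at 11.1 ± 1.93 FPKM in PKP2_het, against 9.48 ± 2.36 FPKM in WT, and ALDOC, the brain aldolase, at 15.03 ± 3.19 FPKM in PKP2_het, against 14.6 ± 1.11 FPKM in WT. Neither passed the limma threshold, with adjusted p-values of 0.647 and 0.960.

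The bifunctional PFKFB enzymes make and remove the main allosteric activator of phosphofructokinase. PFKFB2, the heart isoform, was at 3.75, 6.98, 4.27 and 5.96 FPKM in PKP2_het replicates 1 to 4, against 6.56, 6.74, 5.92 and 6.58 FPKM in WT. PKP2_het replicates 1 and 3 were below all WT libraries, replicate 2 was above them, and the limma adjusted p was 0.516. PFKFB3, the inducible isoform, was between 0.544 and 1.11 FPKM in PKP2_het and between 0.549 and 1.13 FPKM in WT. PFKFB1, best known from liver, had at most 3 fragments in any library.

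Lower glycolysis held the most abundant members. GAPDH, which oxidises glyceraldehyde phosphate, ranked 22 of all genes by mean FPKM and ENO3, the muscle enolase, ranked 37. GAPDH was at 3277, 2268, 3095 and 2731 FPKM in PKP2_het replicates 1 to 4, against 2011, 2272, 2467 and 2266 FPKM in WT replicates 1 to 4. In PKP2_het, replicates 1, 3 and 4 were above every WT library, and replicate 2 lay within the WT range. The log2 fold change was 0.32 with a 95% interval from -0.05 to 0.70 and a limma adjusted p of 0.463. ENO3 was at 1416, 1061, 1086 and 1237 FPKM in PKP2_het, against 1004, 1225, 1206 and 1219 FPKM in WT. PKP2_het replicates 1 and 4 lay above every WT library. PKP2_het replicates 2 and 3 lay above WT replicate 1 and below WT replicates 2, 3 and 4. The ENO3 log2 fold change was 0.04 with an interval from -0.30 to 0.38.

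The remaining enzymes of lower glycolysis had overlapping groups, and their limma adjusted p-values were 0.519 for ENO1, the widely expressed enolase, and 0.637 or more for the others. ENO1 averaged 53.1 ± 8.31 FPKM in PKP2_het, against 43.9 ± 6.46 FPKM in WT (SD, n = 4). PGK1 (phosphoglycerate kinase) was at 155 ± 37.7 FPKM in PKP2_het, against 163 ± 15.7 FPKM in WT. PKM, which makes pyruvate, was at 134 ± 18.4 FPKM in PKP2_het, against 147 ± 18.1 FPKM in WT. The phosphoglycerate mutases were nearly balanced: PGAM1, the widely expressed form, was at 118 ± 25.6 FPKM in PKP2_het, against 137 ± 16.9 FPKM in WT. PGAM2, the muscle form, was at 102 ± 17.9 FPKM in PKP2_het, against 90.8 ± 7.26 FPKM in WT. PKP2_het replicate 3 was the lowest library of all for PGAM1 and the highest of all for PGAM2. Leaving that library out moved the log2 fold change from -0.24 to -0.07 for PGAM1 and from 0.16 to 0.06 for PGAM2.

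Lactate dehydrogenase was almost wholly LDHB, the heart-type subunit. LDHB was at 1401, 862, 866 and 858 FPKM in PKP2_het replicates 1 to 4, against 812, 828, 1019 and 774 FPKM in WT. PKP2_het replicate 1 stood far above its group, and the other 3 lay within the WT range. The limma adjusted p was 0.713. PKP2_het replicate 1 and WT replicate 3, each the highest of its group for LDHB, were also the highest for the atrial marker MYL7. A link between LDHB and atrial content was not tested. LDHA, the muscle-type subunit, was at 10.3 ± 0.565 FPKM in PKP2_het, against 12.5 ± 2.58 FPKM in WT (SD, n = 4). The adjusted p in limma was 0.567. SLC16A3 (MCT4, the lactate exporter of glycolytic cells) was between 0.793 and 0.930 FPKM in PKP2_het and between 0.655 and 0.797 FPKM in WT, and was not tested.

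SLC16A1 (MCT1), which carries lactate and pyruvate across the cell membrane, was lower in every PKP2_het library than in any WT library. It was at 57.7, 50.5, 25.7 and 56.4 FPKM in PKP2_het replicates 1 to 4, against 66.1, 60.5, 68.0 and 76.2 FPKM in WT replicates 1 to 4. PKP2_het replicate 3 was far below the rest, while the other 3 lay closer under the lowest WT library. In limma the log2 fold change was -0.56 (standard error 0.24), with an unadjusted limma p of 0.0412 and an adjusted p of 0.360. Without PKP2_het replicate 3 it was -0.30 (standard error 0.10), with an unadjusted limma p of 0.0205 and an adjusted p of 0.198. The adjusted p of SLC16A1 ran from 0.156 to 0.732 over the 17 alternative fits.

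PDK1 and PDK2 are kinases that switch off pyruvate dehydrogenase. PDK1 was at 15.5, 14.6, 8.10 and 19.6 FPKM in PKP2_het replicates 1 to 4, against 21.1, 28.1, 17.8 and 26.1 FPKM in WT replicates 1 to 4. Only PKP2_het replicate 4 reached the lowest WT library, and on average PDK1 was at 62.1% of WT. The log2 fold change was -0.69 (standard error 0.24), with an unadjusted limma p of 0.0185 and an adjusted p of 0.256. It was -0.46, with a limma adjusted p of 0.212, without PKP2_het replicate 3, and the adjusted p ran from 0.0661 to 0.594 over the 17 alternative fits. PDK2 was at 40.7, 44.0, 20.5 and 42.7 FPKM in PKP2_het, against 37.6, 43.8, 33.9 and 47.3 FPKM in WT. Apart from PKP2_het replicate 3 the PDK2 values lay within the WT range, and the limma adjusted p was 0.767. The PDK2 log2 fold change was -0.18 with all libraries and 0.07 without that library.

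For the glycogen genes, the log2 fold changes from all libraries were negative in 7 of 7 and had a median of -0.40. When PKP2_het replicate 3 was left out, 4 of 7 were negative and the median was -0.09. PGM1 (phosphoglucomutase), which links glycogen to glycolysis, had the largest log2 fold change in size of the 31 tested members, and it did not pass the genome-wide threshold. It was at 26.5, 22.2, 13.0 and 26.9 FPKM in PKP2_het replicates 1 to 4, against 28.01, 45.8, 33.7 and 41.9 FPKM in WT replicates 1 to 4. The groups did not overlap, although WT replicate 1 lay close above the highest PKP2_het library. PGM1 averaged 22.1 ± 6.45 FPKM in PKP2_het, against 37.4 ± 8.02 FPKM in WT (SD, n = 4), so that the PKP2_het mean came to 59.3% of WT. The log2 fold change was -0.76 (standard error 0.24), with an unadjusted limma p of 0.0105 and an adjusted p of 0.195. It was -0.53 when PKP2_het replicate 3 was left out, with a limma adjusted p of 0.153. Over the 17 alternative fits the PGM1 adjusted p ran from 0.0282, with library quality weights, to 0.554.

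PYGM, the muscle glycogen phosphorylase that releases glucose units from glycogen, was at 185, 199, 118 and 213 FPKM in PKP2_het replicates 1 to 4, against 186, 290, 268 and 310 FPKM in WT replicates 1 to 4. WT replicate 1 lay within the PKP2_het range and the other 3 WT libraries lay above it. PYGM had a log2 fold change of -0.57 (standard error 0.22), with an unadjusted limma p of 0.0313 and an adjusted p of 0.318. Without PKP2_het replicate 3 it was -0.38, with an unadjusted limma p of 0.0604, and the adjusted p ran from 0.0949 to 0.726 over the 17 alternative fits. PYGB, the brain-type phosphorylase, was expressed at a level near that of PYGM, at 236, 236, 147 and 320 FPKM in PKP2_het, against 191, 250, 249 and 268 FPKM in WT. PKP2_het replicates 3 and 4 were the lowest and the highest of all 8 libraries for PYGB. Its limma adjusted p was 0.917, and its log2 fold change was -0.07 with all libraries and 0.14 without PKP2_het replicate 3.

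The glycogen synthesis genes had overlapping groups. GYS1, the muscle glycogen synthase, averaged 31.9 ± 11.0 FPKM in PKP2_het, against 40.3 ± 4.17 FPKM in WT (SD, n = 4). The adjusted p in limma was 0.568. UGP2, which makes the UDP-glucose that the synthase uses, was at 15 ± 5.64 FPKM in PKP2_het, against 19.2 ± 2.71 FPKM in WT. GYG1 (glycogenin, the primer of a glycogen particle) was at 84.2 ± 18.9 FPKM in PKP2_het, against 91.05 ± 5.22 FPKM in WT. GBE1, the branching enzyme, was at 14.0 ± 5.18 FPKM in PKP2_het, against 14.1 ± 2.07 FPKM in WT. PKP2_het replicate 3 was the lowest of all 8 libraries for each of these 4 genes, with UGP2 at 6.57 FPKM and GBE1 at 6.42 FPKM. Leaving that library out moved the log2 fold change from -0.40 to -0.11 for GYS1 and from -0.42 to -0.09 for UGP2. The change was from -0.14 to 0.02 for GYG1 and from -0.08 to 0.23 for GBE1.

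**Figure D2:**
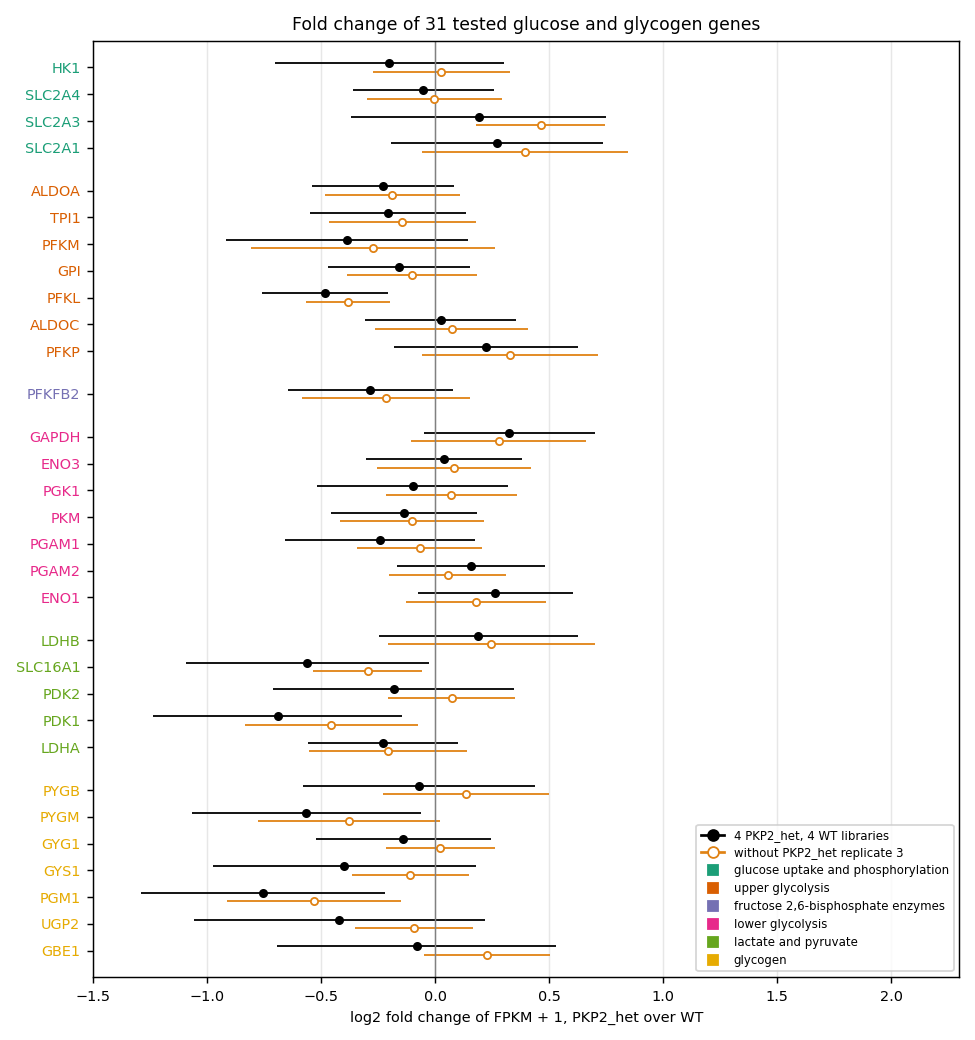
Log2 fold change of FPKM + 1, PKP2_het over WT, for the 31 tested members with 95% intervals from limma, black with all libraries and orange without PKP2_het replicate 3; label colours give the role. The intervals of PFKL, PGM1, PDK1, PYGM and SLC16A1 lie below 0 with all libraries, without adjustment for the number of genes tested. Without PKP2_het replicate 3 that of PYGM reaches 0 and that of SLC2A3 lies above 0, from 0.18 to 0.75.

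**Figure D3:**
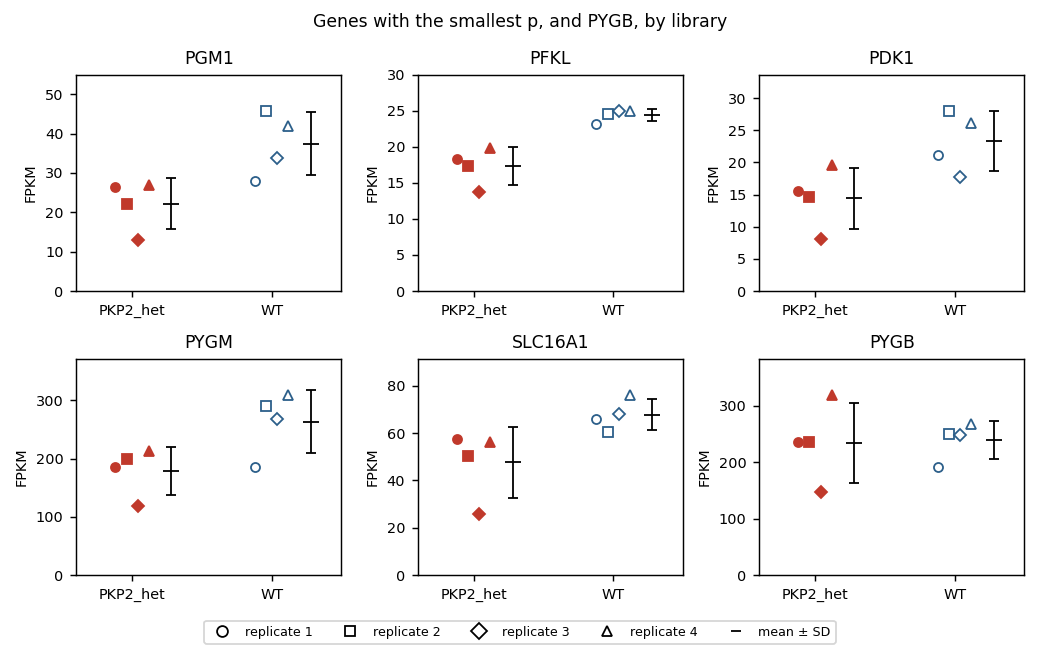
FPKM in each library for the 5 members with an unadjusted limma p under 0.05 and for PYGB, PKP2_het as filled red symbols on the left and WT as open blue symbols on the right of each panel, with mean ± SD (n = 4) in black. PFKL, PGM1 and SLC16A1 do not overlap between the groups, and PKP2_het replicate 3 (diamonds) is the lowest library in every panel.

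Ratios between isozymes within a library do not depend on how libraries are scaled. Of 11 pairs, 9 had both genes above the filter, and the pairs with HK2 and SLC16A3 did not. Each was compared as the mean log2 ratio with a two-sided exact permutation test over 70 relabellings, whose smallest possible p is 0.0286, and adjusted over the 9 pairs. How fragments that match both genes of a pair were assigned is not given in the sources used here. No pair passed the adjusted threshold, but both PYGB/PYGM and PDK1/PDK2 separated the groups at the smallest possible p. With only these pairs at that p, no adjusted p over the 9 pairs could fall under 0.05. The adjusted threshold therefore could not decide on either pair.

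PYGB/PYGM was at 1.27, 1.19, 1.24 and 1.503 in PKP2_het replicates 1 to 4, against 1.03, 0.860, 0.929 and 0.864 in WT replicates 1 to 4. Every PKP2_het library had more PYGB than PYGM, whereas 3 of the 4 WT libraries had more PYGM. The mean log2 ratio was 0.37 ± 0.15 in PKP2_het and -0.12 ± 0.12 in WT (SD, n = 4), a difference of 0.50 with an exact permutation p of 0.0286 and an adjusted p of 0.129. PKP2_het replicate 3, low for both genes, had a ratio within the range of its group, and without it the difference was 0.52. With 3 against 4 libraries the exact permutation p was 0.0571, the smallest possible there.

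PDK1/PDK2 was at 0.382, 0.333, 0.395 and 0.459 in PKP2_het replicates 1 to 4, against 0.562, 0.641, 0.525 and 0.552 in WT replicates 1 to 4. PDK2 exceeded PDK1 in all 8 libraries, and by more in each PKP2_het library than in any WT library. The mean log2 ratio was -1.36 ± 0.19 in PKP2_het and -0.81 ± 0.12 in WT (SD, n = 4), a difference of -0.55 with an exact permutation p of 0.0286 and an adjusted p of 0.129. Without PKP2_het replicate 3 the difference was -0.55 as well, with an exact permutation p of 0.0571.

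The other 7 ratios overlapped between the groups. LDHA/LDHB was 0.0079 to 0.0123 in PKP2_het and 0.0116 to 0.0170 in WT, with a difference of -0.44 in mean log2 ratio and an exact permutation p of 0.0571. PGAM1/PGAM2 was 0.640 in PKP2_het replicate 3 and 1.27 to 1.44 in the other PKP2_het libraries, against 1.33 to 1.65 in WT (exact permutation p = 0.143). PFKP/PFKM differed by 0.64, SLC2A1/SLC2A4 by 0.36, ALDOC/ALDOA by 0.25, ENO1/ENO3 by 0.23 and PFKL/PFKM by -0.12 in mean log2 ratio, PKP2_het minus WT. Their exact permutation p-values ran from 0.114 to 0.629. The mean levels of both PFKL and PFKM were lower in PKP2_het than in WT.

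**Figure D4:**
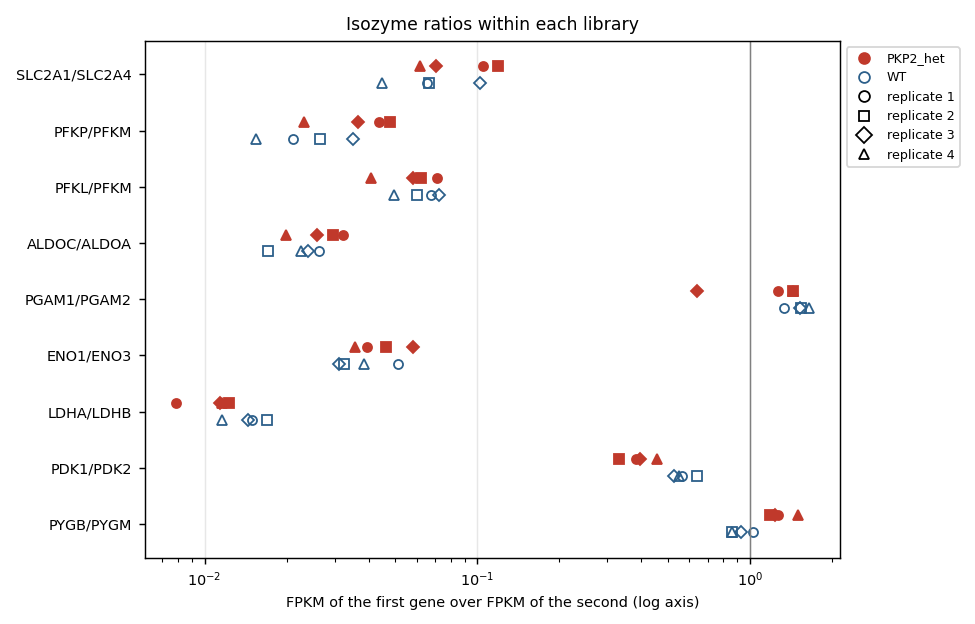
FPKM of the first gene over FPKM of the second in each library, on a log axis, for the 9 isozyme pairs, with PKP2_het libraries as filled red symbols above WT libraries as open blue symbols. PYGB/PYGM lies higher and PDK1/PDK2 lower in all 4 PKP2_het libraries than in any WT library, and the other pairs overlap.

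Together the 35 genes made up 4.21%, 3.48%, 4.06% and 3.90% of the fragments not from the mitochondrial genome in PKP2_het replicates 1 to 4, against 3.33%, 3.84%, 3.88% and 3.76% in WT. The groups overlapped in this share. By role, the summed level of lower glycolysis was 4605 ± 589 FPKM in PKP2_het, against 3999.8 ± 308 FPKM in WT (SD, n = 4), most of it GAPDH and ENO3. The summed level of upper glycolysis was 1557 ± 210 FPKM in PKP2_het, against 1837 ± 203 FPKM in WT, and that of glycogen genes 581 ± 154 FPKM in PKP2_het, against 705 ± 107 FPKM in WT. Members on chromosome 5, which also carries PKP2, were SLC2A3, PFKM, TPI1, GAPDH and LDHB. LDHB was the nearest, 10.3 Mb away (chromosome 5, 51810932 to 51831218, Sscrofa11.1).

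Other genes of these pathways, from lists drawn up with earlier results of these data known, also held no call with all libraries. Of 119 listed genes 104 were tested and 0 passed in limma, while 12 had an unadjusted p under 0.05, 3 higher and 9 lower, against 12.8% of all genes. Among 24 tested genes of glycogen metabolism, 2 were higher and 3 lower at that level, against 6.88% and 5.96% of all genes. PPP1R3B, a subunit that targets a phosphatase to glycogen, was at 3.65 ± 0.706 FPKM in PKP2_het, against 5.81 ± 1.07 FPKM in WT (SD, n = 4). The adjusted p in limma was 0.128. PHKA2, a regulatory subunit of phosphorylase kinase best known from liver, was at 1.97 ± 0.647 FPKM in PKP2_het, against 1.08 ± 0.107 FPKM in WT (limma adjusted p 0.146). Neither gene overlapped between the groups. Over the 104 tested genes of all these lists, 67 log2 fold changes were negative with all libraries, and their median was -0.077. Without PKP2_het replicate 3, 44 were negative and the median was 0.014. In that fit 1 of these genes passed in limma, lower in PKP2_het, against 1.11% of all genes called lower.

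Beside glycolysis, GPD1L, an enzyme related to glycerol phosphate dehydrogenase, was at 37.5, 38.8, 27.3 and 54.8 FPKM in PKP2_het replicates 1 to 4, against 76.8, 66.4, 55.7 and 87.6 FPKM in WT replicates 1 to 4. The groups did not overlap, with PKP2_het replicate 4 just under WT replicate 3. The GPD1L log2 fold change was -0.86 with a limma adjusted p of 0.0934. AKR1B1, the aldose reductase of the polyol pathway, averaged 55.9 ± 9.17 FPKM in PKP2_het, against 77.05 ± 8.51 FPKM in WT (SD, n = 4), also without overlap, with a limma adjusted p of 0.203. These 2 were the members of the list of 14 tested side-branch genes with an unadjusted limma p under 0.05, against 12.8% of all genes.

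Entry of pyruvate into mitochondria had 0 of 12 genes with an unadjusted limma p under 0.05, against 12.8% of all genes. PDK4, the kinase induced by fasting and fatty acids, differed between single PKP2_het libraries: it was at 71.9, 3.88, 5.88 and 36.9 FPKM in PKP2_het replicates 1 to 4, against 37.7, 50.6, 37.7 and 54.6 FPKM in WT. Its limma adjusted p was 0.5002. DLD, a subunit of pyruvate dehydrogenase, was at 133 ± 41.6 FPKM in PKP2_het, against 162 ± 10.2 FPKM in WT (SD, n = 4). The adjusted p in limma was 0.582. The DLD log2 fold change was -0.34 with all libraries and -0.10 without PKP2_het replicate 3.

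Among 17 genes of insulin signalling and GLUT4 trafficking, 1 had an unadjusted p under 0.05. AKT1, a kinase downstream of the insulin receptor, was at 31.7, 33.3, 34.01 and 36.8 FPKM in PKP2_het replicates 1 to 4, against 41.2, 43.7, 38.9 and 42.2 FPKM in WT, without overlap and with a limma adjusted p of 0.260. RAB10, a small GTPase of GLUT4 vesicles, was at 27.2 ± 8.10 FPKM in PKP2_het, against 36.2 ± 2.48 FPKM in WT (SD, n = 4). The adjusted p in limma was 0.429. Of 18 tested transcriptional regulators, 1 was higher and 3 lower at an unadjusted limma p under 0.05, against 6.88% and 5.96% of all genes. EGLN3, an oxygen-sensing prolyl hydroxylase, was at 23.7 ± 6.78 FPKM in PKP2_het, against 40.6 ± 10.6 FPKM in WT. KLF15, a transcription factor known to raise SLC2A4 expression, was at 4.62 ± 1.45 FPKM in PKP2_het, against 2.73 ± 0.619 FPKM in WT. Their limma adjusted p-values were 0.227 and 0.235. EPAS1 and TXNIP were also lower, at unadjusted limma p-values of 0.0450 and 0.0451, and of 0.0991 and 0.108 without PKP2_het replicate 3.

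Hypoxia targets outside glucose metabolism had 0 of 10 genes with an unadjusted limma p under 0.05, against 12.8% of all genes. The smallest p-values were those of ADM (adrenomedullin), at 5.18 ± 0.451 FPKM in PKP2_het, against 4.25 ± 0.588 FPKM in WT (SD, n = 4), and CA9, a carbonic anhydrase, at 1.92 ± 0.541 FPKM in PKP2_het, against 1.38 ± 0.180 FPKM in WT. Their limma adjusted p-values were 0.419 and 0.450. Of 9 tested genes of other sugar transport and glycolysis steps, 0 had an unadjusted p under 0.05. PFKFB4 was at 3.89 ± 0.838 FPKM in PKP2_het, against 3.28 ± 0.190 FPKM in WT, and BPGM, which makes bisphosphoglycerate, at 5.57 ± 1.23 FPKM in PKP2_het, against 6.46 ± 0.547 FPKM in WT. Their limma adjusted p-values were 0.604 and 0.621.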

How the data were processed

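Groups and replicate numbers of the 8 RNA libraries come from the titles. Per the labels' protocols, 1 µg of RNA per library was sequenced as 150 bp paired reads, with HISAT2 2.0.5 as the aligner, per the submitters' processing notes. The sources used here name no counting program and no annotation. The authors deposited FPKM values. FPKM was multiplied by length and divided by the smallest product above 0 in its library, which was taken as 1 fragment. This gave whole fragments for 100% of values, within 0.01 fragments, and fragment numbers rest on that step. The contained library factors equal median-of-ratios factors, so levels are relative to the median gene. Coordinates of all 36 rows match RefSeq Sscrofa11.1.

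The filter asked for 1 FPKM or more in 4 or more of the 8 libraries. On log2(FPKM + 1), limma 3.58.1 (R 4.3.3) was fitted with a mean-variance trend; p-values were two-sided and adjusted by Benjamini-Hochberg over 10757 genes. Fold changes include the pseudocount of 1. Ratios were compared in scipy 1.17.1. The fit was tested on simulated data. Values are printed for members with an unadjusted p under 0.05, without overlap or highest in their role, for ratio pairs that separated, and for the 2 smallest p of each further list; other members were added after their values were seen, and 1 listed gene is not reported here. Members and lists were chosen with earlier results of these data known. Alternatives covered pseudocounts, filters, scalings, voom, library weights, a replicate block and omission of single libraries.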

Additional observations from a re-analysis of the deposited data

Results flagged for a closer look

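A library was singled out where its distance from the nearest of the other 3 in its group, over the group's range, exceeded Dixon's 95% critical value. Of 80 groups tested, 4 met it, and chance gives about 1 in 20. LDHB was at 1401 FPKM in PKP2_het replicate 1, whereas the rest of its group had 858 to 866 FPKM. In PKP2_het replicate 3, PDK2 was at 20.5 FPKM, against 40.7 to 44.0 FPKM in its group, and UGP2 at 6.57 FPKM, against 17.3 to 18.2 FPKM. ENO3 was at 1004 FPKM in WT replicate 1, against 1206 to 1225 FPKM in the other WT libraries.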

How the results depend on the processing

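The count of members called was 0 in 15 of 17 alternative fits, 2 with library quality weights (PFKL and PGM1) and 1 (PFKL) without PKP2_het replicate 3, giving 0 to 1 over the fits that left out 1 library. Of the 31 tested members, 18 kept the sign of their log2 fold change in every alternative and 13 did not, 6 of them without PKP2_het replicate 3 (HK1, PGK1, PDK2, PYGB, GYG1 and GBE1). Of the other 7, ENO3 and ALDOC changed sign in 5 of the 17 fits each, SLC2A4 in 3, PGAM2 in 2, and SLC2A3, PFKP and LDHB in 1 each. The members' median was -0.43 with libraries rescaled to equal sums, where the median over all genes was -0.23, and ran from -0.23 to -0.0035 without 1 library. Genes called over the whole table, 124 higher and 76 lower, were 39 and 28 with a mean of at least 5 FPKM, 50 and 45 with equal sums, 367 and 292 with library quality weights, and 75 to 195 and 40 to 119 without 1 library. The libraries whose omission moved either number by over 1.5 times were PKP2_het replicate 1 (44 lower), 2 (49 lower), 3 (195 higher, 119 lower) and 4 (50 lower), and WT replicate 2 (77 higher, 42 lower) and 4 (75 higher, 40 lower). By setting, the values that changed sign without PKP2_het replicate 3 included HK1 (-0.33 to 0.027 over the fits that left out 1 library), PYGB (-0.24 to 0.14) and PDK2 (-0.28 to 0.072), with library weights PYGB (0.056) and PDK2 (0.014), with equal sums LDHB (-0.080) and PFKFB4 (-0.037), and PFKL/PFKM (0.041) without PKP2_het replicate 4, where that ratio ran from -0.23 to 0.041 over the fits that left out 1 library. The cause was not tested. Library quality weights also called PPP1R3B, PHKA2, GPD1L and AKR1B1. The correlation of deviations between same-numbered libraries of the 2 groups ran from -0.39 to 0.20, which does not show whether they pair. With a replicate block 66 genes were higher and 39 lower, 0 members were called, and GPD1L passed at an adjusted p of 0.0416 (limma), as it did without PKP2_het replicate 4 (0.0446); no ratio can reach 0.05 in that test, whose smallest p is 0.125. The depth of HK2, PFKFB1, PFKFB3 and SLC16A3 limits any statement on them.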
